A study of Mus musculus with 17 samples.

Results

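The 10 genes described here are the G1, S and M phase cyclins Ccnd1, Ccnd2, Ccnd3, Ccne1, Ccne2, Ccna2 and Ccnb1 and the Cdk inhibitors Cdkn1a, Cdkn1b and Cdkn2a. They were chosen by gene symbol out of 23891 symbols in the transcript tables, and each was represented by its RefSeq transcript with the highest mean FPKM over the 17 samples. FPKM stands for sequenced fragments scaled to transcript length and, between libraries, by the upper quartile, with GC normalization. Its sum therefore need not be equal between samples. Together the 10 genes have 16 of the 32661 transcripts that have 1 row each.

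Cyclins are the regulatory partners of the cyclin-dependent kinases (Cdks). D-type cyclins pair with Cdk4 and Cdk6 and start the phosphorylation of the retinoblastoma protein, which otherwise holds back the E2F factors, E-type cyclins pair with Cdk2 at the entry into S phase, cyclin A2 acts in S and G2, and cyclin B1 pairs with Cdk1 in mitosis. The Cip/Kip inhibitors p21 (Cdkn1a) and p27 (Cdkn1b) bind cyclin-Cdk complexes, while Cdkn2a encodes p16Ink4a, which binds Cdk4 and Cdk6, and p19Arf, which stabilizes p53 through Mdm2, from separate first exons. Embryonic stem cells are known for a short G1 phase and for cyclin E levels that vary little through the cycle, and Cdkn2a is a well-known barrier to reprogramming.

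RNA-seq compared spermatogonial stem and progenitor cells (SSCs, 4 lines), the multipotent adult spermatogonial-derived stem cells that arise from them in long culture (MASCs, 6 lines), ESCs (2 lines), iPS cells (2 lines), cultured haematopoietic stem and progenitor cells (HSCs, 2 cultures) and 1 sample of mouse embryonic fibroblasts (MEFs). By strain, SSC.1, SSC.2, MASC.1, MASC.2 and ESC.1 are Oct4-GFP; SSC.3 and both HSC cultures are C57Bl/6J; SSC.4, MASC.3, MASC.4, ESC.2, both iPS lines and the MEF sample are 129mix; and MASC.5 and MASC.6 are Gt(ROSA26)Sor-lacZ. MASC and ESC lines were subcloned, and the iPS lines came from tetO-4F2A x H3.3B-HA MEFs after doxycycline, which switches on the reprogramming factors. The MEF sample itself came from H3.3B-HA embryos, and both it and the MEFs behind the iPS lines were taken at E13.5, a day of embryonic development. SSCs, MASCs, ESCs and iPS cells grew on MEF feeder cells, whereas the HSC cultures were lineage-negative bone marrow cells grown on human E4ORF1-HUVEC endothelial feeders. These are cultured populations, so fewer cells of a type and less RNA per cell cannot be told apart. SSCs grew with the growth factors GDNF (10 ng/ml), bFGF (10 ng/ml) and EGF (20 ng/ml), the HSC cultures with kit ligand (10 ng/ml), and MASCs, ESCs and iPS cells in ESC medium with LIF, so cell type and medium cannot be told apart. Before collection, SSCs were plated on gelatin to remove feeder cells, and the floating cells were taken. Replicates are separate lines or cultures, and p-values measure the spread between them. Whether lines of the same strain were derived independently is not stated in the sources used here, and the tests treat all lines as independent.

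Summed FPKM of the 10 SSC markers was 762 to 933 in SSCs and 162 to 234 in MASCs, and that of the 8 pluripotency markers was 12.8 to 155.5 in SSCs and 2831 to 4439 in MASCs. The HSC cultures held blood markers at 2189 to 2478, but also the 6 mast cell markers at 38231 and 62725, so their values are those of cultures rich in mast cell transcripts. Endothelial markers summed to at most 53.8 in any sample. Low mast cell sums of 26.6 in SSC.3, 46.6 in MASC.2 and 28.4 in ESC.1 were also present. Fibroblast markers, which feeder cells left after that step could bring, summed to 7425 in the MEF sample, to 1041 in MASC.1 and 952 in SSC.3, and to 34.9 to 436 in the other SSC, MASC and ESC lines. Each sample had 13532 to 16272 transcripts at 1 FPKM or more, and 1 FPKM stood for 1.26 to 3.23 reads per base. The files give no read counts, so no counting interval was computed.

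Sequences are shown for the start sites at which the cell types differed most, or which bear on the results below: the alternative starts of Ccnd3 and Cdkn2a, and the starts of Ccnd2, Ccne1 and Ccnb1. Each runs 5′ to 3′ on the gene's own strand from 250 bases before the RefSeq start towards it, on NCBIM37, the assembly also known as mm9, and stops before any annotated exon. Capitals mark motif letters, which were searched on both strands. The letters CCAAT are a common promoter box, and the letters TTTGAA are those of the cell cycle homology region. The E2F-type motif was searched as TTTCCCGC and also as TTTGGCGC, then as TTTCGCGC, and lastly as TTTGCCGC. The printed matches do not overlap.
Ccnd3 upstream start, chr17:47641750-47641999, plus strand: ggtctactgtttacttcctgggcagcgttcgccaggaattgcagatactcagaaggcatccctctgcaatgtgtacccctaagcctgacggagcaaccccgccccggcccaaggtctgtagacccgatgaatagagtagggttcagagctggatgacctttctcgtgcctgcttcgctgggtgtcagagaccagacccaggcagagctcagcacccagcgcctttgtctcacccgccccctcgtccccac
Ccnd3 downstream start, chr17:47730166-47730415, plus strand: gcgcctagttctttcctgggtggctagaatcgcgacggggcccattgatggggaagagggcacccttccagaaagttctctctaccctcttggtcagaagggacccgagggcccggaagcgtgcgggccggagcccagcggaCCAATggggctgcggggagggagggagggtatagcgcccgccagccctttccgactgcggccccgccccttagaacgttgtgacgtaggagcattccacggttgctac
Cdkn2a upstream start (p19Arf), chr4:88940558-88940773, minus strand: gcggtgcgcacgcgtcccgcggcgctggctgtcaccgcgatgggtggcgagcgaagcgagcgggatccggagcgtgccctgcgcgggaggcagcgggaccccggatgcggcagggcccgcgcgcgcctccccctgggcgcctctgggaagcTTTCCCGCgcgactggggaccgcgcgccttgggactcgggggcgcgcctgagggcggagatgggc
Cdkn2a downstream start (p16Ink4a), chr4:88928097-88928346, minus strand: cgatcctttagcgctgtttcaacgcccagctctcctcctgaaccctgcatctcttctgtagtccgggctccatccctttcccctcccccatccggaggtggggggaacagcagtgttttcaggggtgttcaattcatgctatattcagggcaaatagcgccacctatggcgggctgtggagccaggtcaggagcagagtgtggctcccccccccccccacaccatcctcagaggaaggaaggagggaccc
Ccnd2, chr6:127101067-127101316, minus strand: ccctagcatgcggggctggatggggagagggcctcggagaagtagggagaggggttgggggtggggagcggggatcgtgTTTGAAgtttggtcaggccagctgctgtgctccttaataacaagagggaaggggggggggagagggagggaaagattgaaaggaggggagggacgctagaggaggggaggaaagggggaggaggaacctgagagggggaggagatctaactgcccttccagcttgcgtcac
Ccne1, chr7:38892554-38892759, minus strand: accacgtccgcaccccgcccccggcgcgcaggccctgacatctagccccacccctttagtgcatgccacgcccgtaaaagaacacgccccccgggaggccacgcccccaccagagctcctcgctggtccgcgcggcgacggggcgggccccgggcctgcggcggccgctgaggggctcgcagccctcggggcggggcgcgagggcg
Ccnb1, chr13:101556526-101556691, minus strand: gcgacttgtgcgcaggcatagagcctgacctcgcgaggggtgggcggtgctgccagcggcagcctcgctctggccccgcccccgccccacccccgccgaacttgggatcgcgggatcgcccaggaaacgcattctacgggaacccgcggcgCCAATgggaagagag

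The Ccnd3 starts lie 88416 bases apart on chromosome 17. The upstream window touches no annotated gene, whereas the downstream window lies in an intron of the longer Ccnd3 transcripts. The Cdkn2a starts lie 12427 bases apart on chromosome 4, and the p16Ink4a window lies in an intron of the p19Arf transcript. In the whole 250-base window, GC content was 59.6% at the upstream and 64.8% at the downstream start of Ccnd3, and 78.4% for p19Arf and 60.0% for p16Ink4a, against a median of 56.0% over 23360 start sites. The p19Arf window holds 40 CpG dinucleotides and the p16Ink4a window 7. An E2F-type match is present in the p19Arf window and in no other of the 14 windows of these genes, compared with 2.3% of all windows. CCAAT was found in 5 of the 14 windows (35.7%), close to the 34.7% of all windows, and the Ccnb1 window holds it 2 times, at 99 and 67 bases before the start, of which the first is printed. TTTGAA was found in the Ccnd2 window alone of these genes and in 13.6% of all windows. The Ccne1 window, with 76.0% GC, holds none of these letters. The Ccnd2 window lies in an intron of 9330179D12Rik on the opposite strand.

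Between MASCs and SSCs, 5 of the 10 genes differed at an adjusted p under 0.05 (limma on log2(FPKM + 1) over all transcripts), where 30.9% of all transcripts did. Ccnd3, Ccne1 and Ccnb1 were higher in MASCs (3 of 10, against 11.4% of all transcripts), and Ccnd2 and the p19Arf transcript of Cdkn2a were lower (2 of 10, against 19.5%). The same 5 genes had no overlap between the 4 SSC and 6 MASC lines, as had 25.3% of all transcripts. The median difference over the 10 genes was 0.54 on the log2 scale, compared with -0.01 over all transcripts. Of all transcripts, 3739 were higher and 6360 lower. With quantile normalization these counts were 4334 and 5128, and with FPKM rescaled to a common sum per sample (TPM scaling) 2729 and 8397. That rescaling moved the median of transcripts with a mean of at least 1 FPKM from -0.10 to -0.39. All transcripts include many near 0 FPKM. When only the 18757 with at least 1 FPKM in at least 2 of the lines were tested, 3683 were higher and 5676 lower. The 5 of 10 genes called are not an excess over that larger share.

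**Figure D1:**
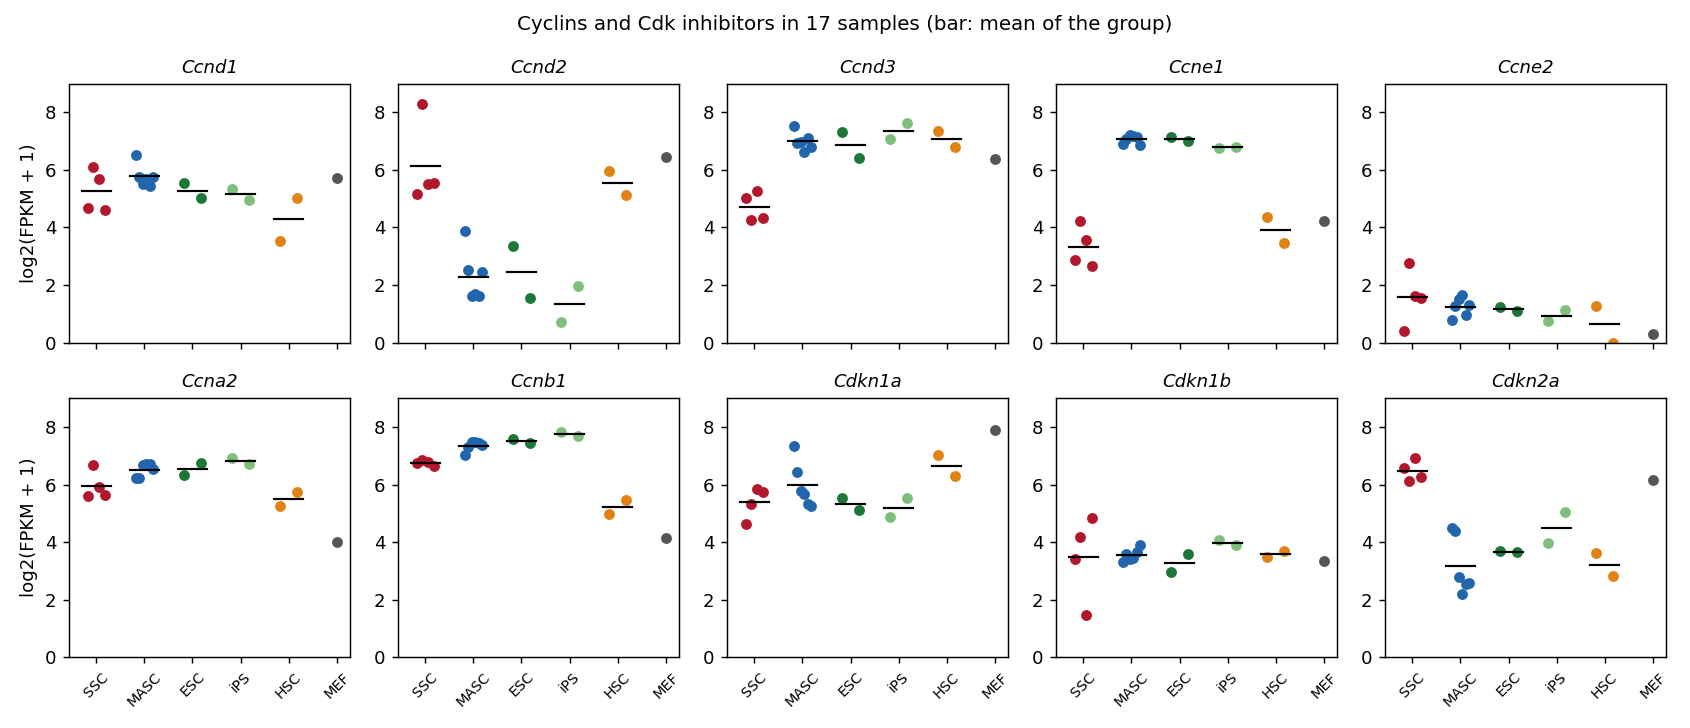
Level of each of the 10 genes in each sample, as log2(FPKM + 1) on the vertical axis, by cell type; each point is a line, culture or sample and the bar is the mean of a group. Ccne1 in MASC, ESC and iPS lines forms a tight band between 107.6 and 147.9 FPKM, far above the SSC lines at 5.28 to 17.6 FPKM, while Ccnd2 and Cdkn2a show the opposite order.

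Among the D-type cyclins, Ccnd2 was the one that fell. Its FPKM was 34.6, 310.1, 44.6 and 45.3 in SSC.1 to SSC.4, and 2.06 to 13.7 (median 3.36) in MASCs. All 4 SSC lines lay above all 6 MASC lines, and SSC.2 lay far above the other SSC lines. The difference was -3.82 ± 0.72 (SE, log2 scale; adjusted p = 0.00277), or 14.2-fold lower in MASCs. Without SSC.2 it was -3.10 (adjusted p = 0.00349), so the size of the fall, though not its call, depended on that line. MASC.1, the highest MASC line, also had the highest fibroblast sum, 14.0% of that of the MEF sample; that share of the MEF level of Ccnd2 (87.3 FPKM) would be 12.2 FPKM, beside the 13.7 FPKM measured. In SSC.2 the fibroblast sum was 0.470% of that of the MEF sample. The MEF sample stands in for the feeder cells in this and the later shares of MEF levels. The SSC feeders were commercial MEFs, not the H3.3B-HA MEFs sampled here, and levels in feeder cells were not measured. Whether feeder RNA takes part in these values was not tested.

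Ccnd3 showed the reverse. The transcript from its downstream start had 31.4, 18.01, 37.9 and 18.9 FPKM in SSC.1 to SSC.4, against 97.0 to 182.3 (median 122.9) in MASCs. The lowest MASC line was above the highest SSC line, and the difference of 2.28 ± 0.27 (SE; adjusted p = 0.000174) is a 4.85-fold higher level. Exons of Ccnd3 share 353 bases with exons of Bysl on the other strand, and the sources do not state that strand was used in counting.

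Ccnd1, which responds to mitogens, had 24.8, 67.6, 50.0 and 23.2 FPKM in SSC.1 to SSC.4 and 42.5 to 90.5 (median 51.7) in MASCs. The lines overlapped, and the difference of 0.51 (95% interval -0.23 to 1.26; adjusted p = 0.297) did not pass the threshold. Its exons share 818 bases with Oraov1 on the other strand.

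With the transcripts of each gene summed, Ccnd2 made up 27.2% to 75.7% of the D-type cyclin FPKM in SSCs and 1.12% to 4.75% in MASCs. Ccnd3 made up 7.76% to 50.6% in SSCs and 63.8% to 75.8% in MASCs, and 72.1% to 74.4% in ESCs and 77.1% to 85.8% in iPS lines. These ranges do not overlap between SSCs and MASCs, whereas the share of Ccnd1 does, at 16.5% to 30.4% and 23.1% to 33.8%. The summed D-type level was 120.3 to 409.4 FPKM in SSCs and 150.5 to 287.8 in MASCs, which overlap. In the HSC cultures Ccnd3 made up 63.9% to 69.1% and Ccnd2 18.7% to 26.4%. In the MEF sample Ccnd3 made up 37.7% and Ccnd2 39.1%. A high Ccnd3 share was thus not limited to MASC, ESC and iPS lines, nor a high Ccnd2 share to SSCs. The shares are a description and were not tested.

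**Figure D2:**
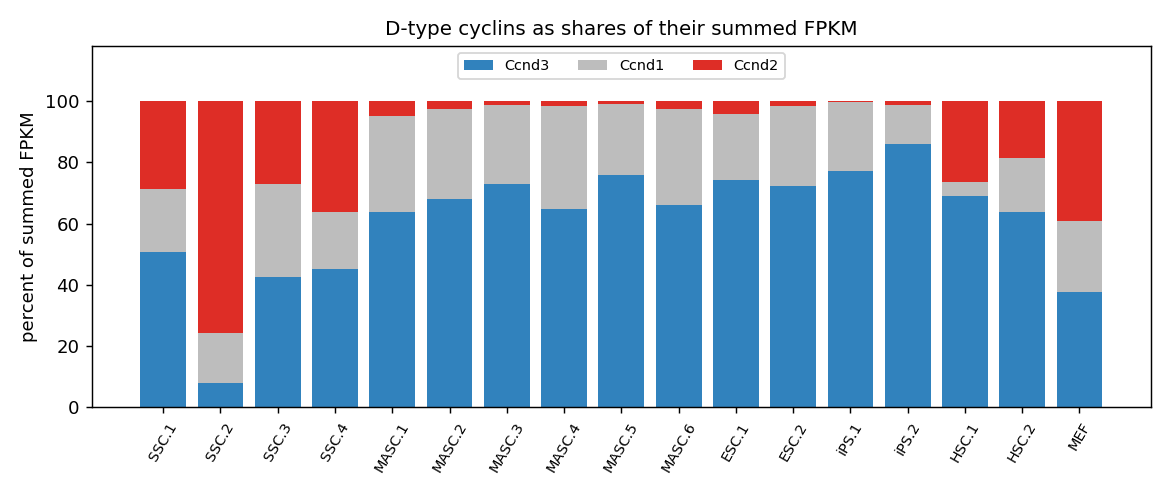
Share of each D-type cyclin gene in the summed D-type cyclin FPKM (vertical axis, percent) of each sample, with all transcripts of a gene summed. Ccnd2 takes at least 27.2% in the 4 SSC lines and at most 4.75% in the MASC, ESC and iPS lines. SSC.2 stands apart with 75.7%. In the HSC cultures Ccnd2 takes 18.7% to 26.4%, and in the MEF sample 39.1%.

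The rise of the Ccnd3 downstream transcript was accompanied by a loss of the transcripts from the upstream start. These transcripts (NM_001081635 and NM_001081636 together) had 29.5, 13.7, 31.8 and 37.4 FPKM in SSC.1 to SSC.4, and 0.349 to 2.73 FPKM in MASCs. They supplied 48.5%, 43.3%, 45.6% and 66.5% of the Ccnd3 FPKM in the SSC lines, a mean of 51.0% ± 10.6 (SD, n = 4). In MASCs the share was 0.359% to 2.41%, a mean of 0.987% ± 0.725 (SD, n = 6). Every SSC line was therefore above every MASC line, and the exact permutation test over the lines gave p = 0.00476, two-sided, the smallest that 4 against 6 lines can give, or 0.019 after Benjamini-Hochberg adjustment over 8 such tests. The tests by start site were not planned in advance. Leaving out each line in turn kept the difference of means between -52.5 and -44.8 percentage points.

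The upstream Ccnd3 share was low in all the other cell types as well. It was 0.958% and 1.01% in the ESC lines, 1.56% and 2.12% in the iPS lines, 1.08% and 5.46% in the HSC cultures and 1.26% in the MEF sample. Each upstream transcript passed the transcript-wide test by itself, NM_001081635 with -3.08 ± 0.26 (SE; adjusted p = 1.9e-05) and NM_001081636 with -3.17 ± 0.45 (SE; adjusted p = 0.000517). Coverage of NM_001081635 was 24.6 to 51.8 reads per base in SSCs and 0.341 to 2.78 in MASCs. With all transcripts summed, Ccnd3 was still higher in MASCs, by 1.27 on the log2 scale (exact permutation p = 0.00476, adjusted over 8 tests 0.019), a smaller difference than that of the downstream transcript alone. The transcripts share their later exons, so Cufflinks divided the shared reads by estimate.

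**Figure D3:**
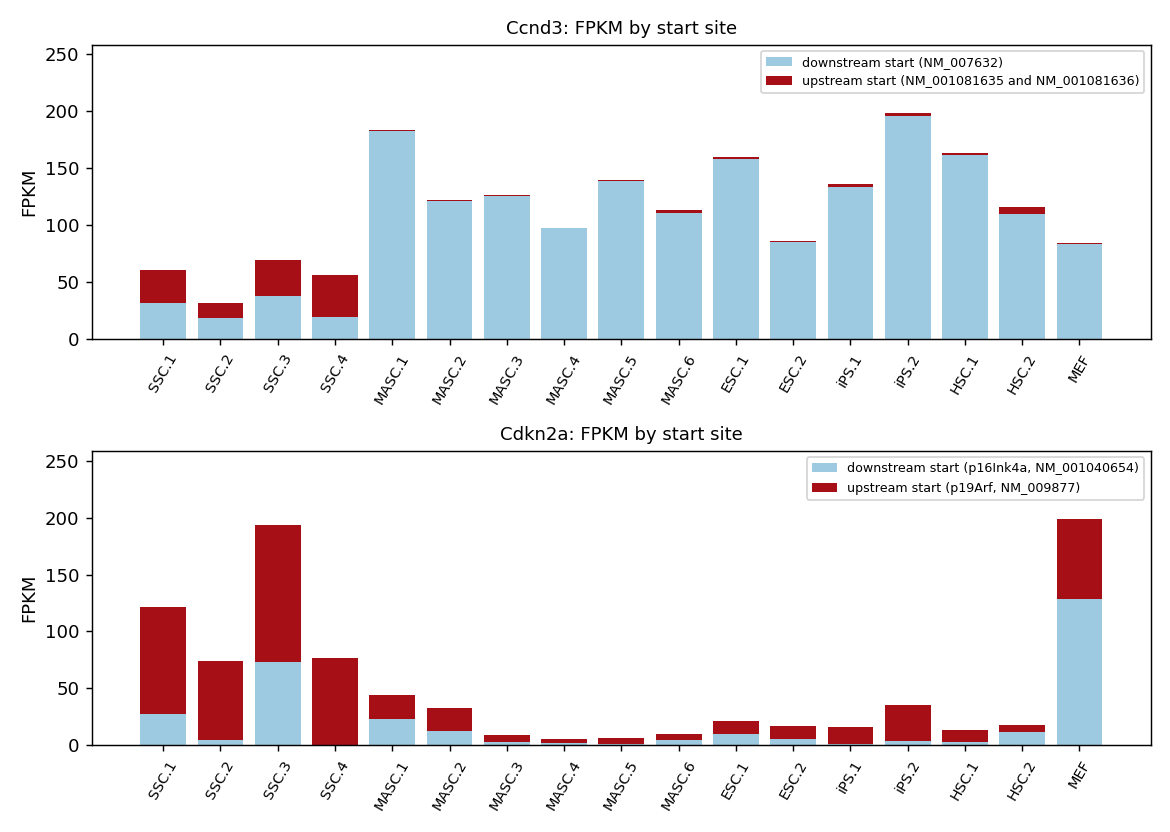
FPKM of Ccnd3 (top) and Cdkn2a (bottom) in each of the 17 samples, stacked by start site; the vertical axis is FPKM. The upstream part of Ccnd3 is 43.3% to 66.5% of the bar in SSCs and at most 5.46% in all other samples; Cdkn2a is highest in the SSC lines and the MEF sample, where 35.6% of it is p19Arf.

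Of the E-type cyclins, which drive entry into S phase, Ccne1 had the largest rise among the 7 cyclins. Its FPKM was 6.36, 17.6, 10.8 and 5.28 in SSC.1 to SSC.4 and 116.3 to 147.9 (median 136.6) in MASCs. The groups are separated by a wide gap, and the MASC lines vary little among themselves (SD 0.15 on the log2 scale, n = 6, against 0.71 in SSCs, n = 4). The difference was 3.74 ± 0.27 (SE; adjusted p = 7.63e-06), or 13.3-fold higher in MASCs. It was 3.43 within the Oct4-GFP lines and 4.55 within the 129mix lines.

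Ccne2 was expressed at a low level. Its most abundant transcript had 0.335, 5.81, 2.09 and 1.92 FPKM in SSC.1 to SSC.4 and 0.720 to 2.18 (median 1.44) in MASCs, and the difference was -0.34 (95% interval -1.20 to 0.51; adjusted p = 0.584). The lines overlap, and coverage was 0.932 to 16.7 reads per base in SSCs. A less abundant transcript from the upstream start, NM_001037134, was lower in MASCs (-0.85 ± 0.11, SE; adjusted p = 0.000361), at a coverage of 3.50 to 6.49 reads per base in SSCs and 0.978 to 1.80 in MASCs. The share of Ccne2 FPKM from that start was 24.8% to 63.6% in SSCs and 13.2% to 32.0% in MASCs (exact permutation p = 0.0238, adjusted 0.0476). The third transcript, NM_009830, differed by -0.13 (adjusted p = 0.748). Ccne2 shares 609 exon bases with Ints8 on the other strand.

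Of the later cyclins, Ccnb1, the mitotic partner of Cdk1, had 107.6, 114.2, 109.0 and 99.0 FPKM in SSC.1 to SSC.4 and 128.2 to 179.5 (median 167.5) in MASCs. The groups do not overlap, but they are close, and the difference of 0.59 ± 0.09 (SE; adjusted p = 0.000871) was small beside those of Ccnd3 and Ccne1. Under TPM scaling the Ccnb1 difference was 0.27 (adjusted p = 0.127) and under quantile normalization 0.21 (adjusted p = 0.186), so its call ended with either scaling.

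Ccna2, which acts in S phase and G2, had 47.1, 100.3, 60.0 and 48.6 FPKM in SSC.1 to SSC.4 and 73.5 to 104.8 (median 97.9) in MASCs. SSC.2 lay within the MASC range and the other SSC lines below it. The difference of 0.57 ± 0.22 (SE; adjusted p = 0.0814) missed the threshold, whereas without SSC.2 it was 0.81 (adjusted p = 0.00539). Ccna2 shares 512 exon bases with Exosc9 on the other strand.

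SSC.2 was the highest SSC line for every one of the cyclins Ccnd1, Ccnd2, Ccne1, Ccne2, Ccna2 and Ccnb1, and the lowest for the downstream transcript of Ccnd3. It also had the highest summed level of the 19 G2 and M phase genes in SSCs, 976 FPKM against 656 to 720 in the other SSC lines.

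Among the inhibitors, the p19Arf transcript of Cdkn2a fell. It had 94.1, 69.5, 120.5 and 76.5 FPKM in SSC.1 to SSC.4 and 3.57 to 21.4 (median 5.41) in MASCs. All SSC lines were above all MASC lines, and the difference was -3.32 ± 0.49 (SE; adjusted p = 0.00066), 9.96-fold lower in MASCs. Within MASCs the Oct4-GFP lines MASC.1 and MASC.2 had 21.4 and 20.1 FPKM, and the other 4 lines 3.57 to 5.86. The fibroblast sum was 14.0% of that of the MEF sample in MASC.1 but 1.98% in MASC.2, and these shares of the MEF level of p19Arf (70.8 FPKM) would be 9.93 and 1.40 FPKM. The difference was -1.91 in the Oct4-GFP lines and -3.79 in the 129mix lines on the log2 scale. That difference between strains did not pass the transcript-wide test (1.88; adjusted p = 0.318).

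The p16Ink4a transcript varied between the SSC lines by more than it differed between cell types. It had 27.5, 4.36, 73.0 and 0.586 FPKM in SSC.1 to SSC.4 and 22.7, 12.2, 2.71, 1.68, 1.23 and 4.73 FPKM in MASC.1 to MASC.6, a difference of -0.99 ± 1.10 (SE; adjusted p = 0.583). The MEF sample had 128.1 FPKM. In SSC.1 to SSC.4 the fibroblast sum was 5.28%, 0.470%, 12.8% and 1.32% of that of the MEF sample, and these shares of the MEF level of p16Ink4a would be 6.76, 0.602, 16.4 and 1.69 FPKM. SSC.3 and SSC.1, the highest for p16Ink4a, were thus also the highest in fibroblast markers, with p16Ink4a above that share, and SSC.4 was below it. SSCs had been through the gelatin step against feeder cells, and the part of any left in these values was not tested. p19Arf was 62.3% to 99.2% of the Cdkn2a FPKM in SSCs and 48.6% to 79.6% in MASCs (exact permutation p = 0.0619, adjusted 0.099), which did not pass the threshold. The summed Cdkn2a level was lower in MASCs by the exact permutation test (-2.98 on the log2 scale; p = 0.00952, adjusted 0.0254).

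Cdkn1a, the p21 gene that p53 induces, had 24.0, 39.1, 56.2 and 52.3 FPKM in SSC.1 to SSC.4 and 36.9 to 161.7 (median 52.3) in MASCs. The lines overlapped and the difference was 0.58 (95% interval -0.37 to 1.53; adjusted p = 0.363). MASC.1 was the highest at 161.7 FPKM and MASC.2 next at 84.6; 14.0% of the MEF level (239.5 FPKM) would be 33.6 FPKM. The transcript from the start 2786 bases upstream made up 7.83% to 14.0% of Cdkn1a FPKM in SSCs and 7.35% to 14.3% in MASCs.

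Cdkn1b, the p27 gene, had 9.52, 17.2, 1.76 and 27.5 FPKM in SSC.1 to SSC.4, a wide spread, and 8.94 to 14.1 (median 10.5) in MASCs, a narrow one inside it. The difference was 0.09 (95% interval -1.13 to 1.31; adjusted p = 1.0), and it turned to -0.58 (adjusted p = 0.192) without SSC.3, the low line.

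**Figure D4:**
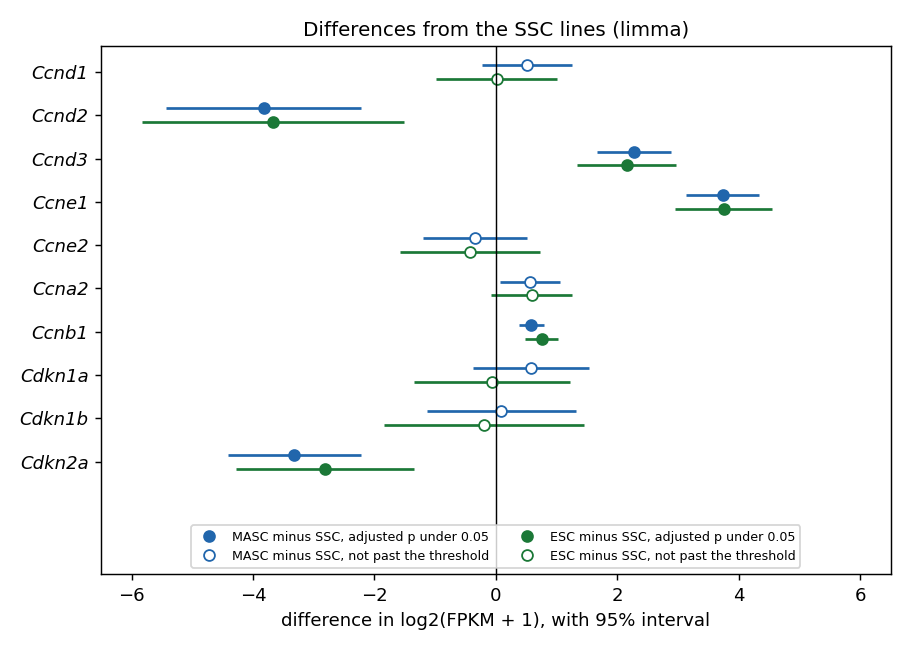
Difference in log2(FPKM + 1) from the SSC lines for MASC (blue) and ESC lines (green) with 95% intervals (horizontal axis); filled points passed an adjusted p under 0.05. Ccne1, Ccnd3 and Ccnb1 lie right of 0 and Ccnd2 and Cdkn2a left of it for both cell types, which share the same SSC lines.

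ESCs differed from SSCs in the same 5 of 10 genes, where 21.4% of all transcripts differed, and in the same directions. The differences were -3.67 for Ccnd2, 2.15 for Ccnd3, 3.76 for Ccne1, 0.76 for Ccnb1 and -2.81 for Cdkn2a, with adjusted p of 0.023, 0.00241, 9.62e-05, 0.00187 and 0.0132. The comparison uses the same SSC lines as that of MASCs, so it is no independent repeat. It rests on 2 ESC lines: without ESC.2 the call of Ccnd2 was lost (-2.76; adjusted p = 0.206), and without either line that of Cdkn2a (adjusted p = 0.0737 and 0.0822). The Ccnb1 call was lost under TPM scaling (0.45; adjusted p = 0.0799) and quantile normalization (0.36; adjusted p = 0.12). Of the 18757 transcripts with at least 1 FPKM in at least 2 lines, 2573 were higher and 4454 lower in ESCs, a larger share than of all transcripts.

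MASCs and ESCs compared directly gave no call among the 10 genes with limma, and none at an unadjusted p under 0.05, where 0.0306% of all transcripts were called and 2.92% had such a p. The difference was -0.02 (95% interval -0.77 to 0.73) for Ccne1, 0.13 (-0.64 to 0.89) for Ccnd3 and -0.17 (-0.43 to 0.09) for Ccnb1. It was -0.15 (-2.19 to 1.89) for Ccnd2 and -0.51 (-1.89 to 0.88) for Cdkn2a. ESC.1 and ESC.2 had 140.7 and 128.6 FPKM of Ccne1, 9.28 and 1.89 of Ccnd2, and 11.9 and 11.6 of p19Arf.

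The iPS lines, made by forced factors rather than by spontaneous conversion, likewise gave no call against MASCs (1.97% of all transcripts were called), and 2 of the 10 genes at an unadjusted p under 0.05, compared with 12.8% of all transcripts. These were Ccnb1, with 228.1 and 204.7 FPKM (0.42 higher than in MASCs; adjusted p = 0.171), and p19Arf, with 14.5 and 31.8 FPKM (1.34 higher; adjusted p = 0.385). Ccne1 was 107.6 and 111.0 FPKM in the iPS lines and Ccnd2 0.636 and 2.95.

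The HSC cultures shared some features with each side. Against SSCs, 3 of 10 genes were called, where 33.4% of all transcripts were. Of the 19880 transcripts with at least 1 FPKM in at least 2 samples, 3679 were higher and 6426 lower in HSCs. Ccnd3 was higher (161.0 and 109.5 FPKM, 2.35 ± 0.36, SE; adjusted p = 0.00029), Ccnb1 was lower (30.4 and 42.9 FPKM, -1.54 ± 0.14; adjusted p = 5.82e-06), and p19Arf was lower (11.2 and 6.09 FPKM, -3.26 ± 0.64; adjusted p = 0.00183). Ccne1 had 19.4 and 9.97 FPKM and Ccnd2 62.0 and 34.0, both close to the SSC lines, with differences of 0.58 (95% interval -0.21 to 1.37) and -0.57 (-2.57 to 1.44).

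Against MASCs, 5 of 10 genes were called in the HSC cultures, where 31.6% of all transcripts were. Of the 19880 transcripts with at least 1 FPKM in at least 2 samples, 4149 were higher and 5642 lower in HSCs. The 5 of 10 genes are not a clear excess over that larger share. Ccnd2 was higher (3.26 ± 0.87, SE; adjusted p = 0.0124). The other 4 genes were lower in HSCs. The difference was -3.16 ± 0.34 (SE; adjusted p = 2.21e-05) for Ccne1, -2.13 ± 0.13 (adjusted p = 2.22e-07) for Ccnb1, -1.02 ± 0.27 (adjusted p = 0.0119) for Ccna2 and -1.497 ± 0.46 (adjusted p = 0.027) for Ccnd1. With the study's threshold, read as a log2 difference of at least 2, 3 of the 10 genes passed, against 8.37% of all transcripts. Without HSC.1 the calls of Ccnd1, Ccnd2 and Ccna2 were lost (adjusted p = 0.377, 0.107 and 0.146), which left 2 genes. Cdkn1a was 130.3 and 76.8 FPKM, with both cultures above all SSC lines, but it passed neither test (adjusted p = 0.0981 against SSCs and 0.371 against MASCs). Without MASC.1, which enters only the pooled spread, limma called Cdkn1a against SSCs (1.27, adjusted p = 0.0338). Against SSCs, limma also called Ccne1 without SSC.2 (0.87, adjusted p = 0.0306) and Ccne2 without SSC.1 (-1.35, adjusted p = 0.0342). The Ccnd1 difference against SSCs was -0.98, and -1.725 without HSC.2, so its size depended on that culture.

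The single MEF sample had the lowest Ccna2 (14.8 FPKM) and Ccnb1 (16.7 FPKM) and the highest Cdkn1a (239.5 FPKM) of the 17 samples, with 87.3 FPKM of Ccnd2, 51.5 of Ccnd1 and 17.5 of Ccne1. It has no replicate and entered no test.

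Other cell cycle genes were taken from lists by function. Each count below is to be read against the 11.4% of all transcripts that were higher and the 19.5% that were lower in MASCs than in SSCs. Most list genes were at 1 FPKM or more, and both shares are larger among such transcripts. Of 18757 with at least 1 FPKM in at least 2 lines, 3683 were higher and 5676 lower. List shares somewhat above 11.4% or 19.5% are therefore no clear excess. Of 22 G1 regulators, 7 (31.8%) were higher and 7 (31.8%) lower, and 4 and 7 under TPM scaling. E2f4, a repressive E2F, rose from 20.0 to 33.3 FPKM in SSCs to 107.7 to 143.2 in MASCs (2.28), and E2f8 rose by 1.93. E2f1, an activating E2F, fell by 1.62, and Rb1 fell from 10.7 to 16.3 FPKM to 3.04 to 4.86 (-1.61). The kinase partners of the D-type cyclins, Cdk4 and Cdk6, named after their values were seen, were both higher (1.08 and 0.62).

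Of 19 G2 and M phase regulators, 8 (42.1%) were higher and 2 (10.5%) lower, against 11.4% and 19.5% of all transcripts. Their median difference was 0.39, compared with -0.01 over all transcripts, and 0.09 under TPM scaling, compared with -0.08. Mybl2 rose by 2.79, the APC inhibitor Fbxo5 by 1.99, Cdk1, the partner of cyclin B1, by 1.83 (11.4 to 31.0 FPKM in SSCs and 42.0 to 67.7 in MASCs), and Birc5 by 1.80. Without MASC.1 and SSC.2, 13 were higher and 1 lower. Of 16 S phase and proliferation genes 6 (37.5%) were higher and none lower, among them Rrm2 (3.16), which supplies deoxynucleotides, Pcna (1.27), Tyms (1.25) and Gmnn (1.17). Under TPM scaling, 7 and 2 of the G2 and M phase genes and 5 and 2 of the S phase genes were higher and lower. Of 19 other cyclins, 2 (10.5%) were higher, near the 11.4% of all transcripts, and 7 (36.8%) lower. Among those called, Cntd1 (-1.68), Ccng2 (-1.28), Ccny (-0.96) and Ccnf (0.88) were the farthest from 0.

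Among the other 5 Cdk inhibitors, none was higher and 2 (40.0%) were lower, against 19.5% of all transcripts. Cdkn1c (p57) had 18.01 to 35.4 FPKM in SSCs and 2.08 to 37.4 in MASCs (-2.17; adjusted p = 0.0406), where MASC.6 with 37.4 FPKM was above all SSC lines and the other MASC lines had 2.08 to 6.02. Cdkn2c (p18) had 1.06 to 5.07 FPKM in SSCs and 0.511 to 0.732 in MASCs (-1.22). Cdkn2b, Cdkn2d and Cdkn3 gave differences of -0.56, -0.23 and -0.44, none past the threshold. Of 14 regulators upstream of Cdkn1a and Cdkn2a, 4 (28.6%) were higher and 4 (28.6%) lower, against 11.4% and 19.5% of all transcripts, and 2 and 5 under TPM scaling. Trp53 rose from 28.9 to 42.1 FPKM in SSCs to 143.9 to 191.8 in MASCs (2.24), Id1 by 2.05, Twist1 fell by 2.22, and Bmi1, the Polycomb protein that represses Cdkn2a, fell by 1.96 (13.4 to 28.6 FPKM in SSCs and 3.20 to 5.53 in MASCs). Without MASC.1 and SSC.2, the calls of Cdkn1c (adjusted p = 0.116) and Id1 (adjusted p = 0.0906) were lost, as was that of Cdkn1c under quantile normalization (0.0513) and that of Id1 under TPM scaling (0.0705).

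**Figure D5:**
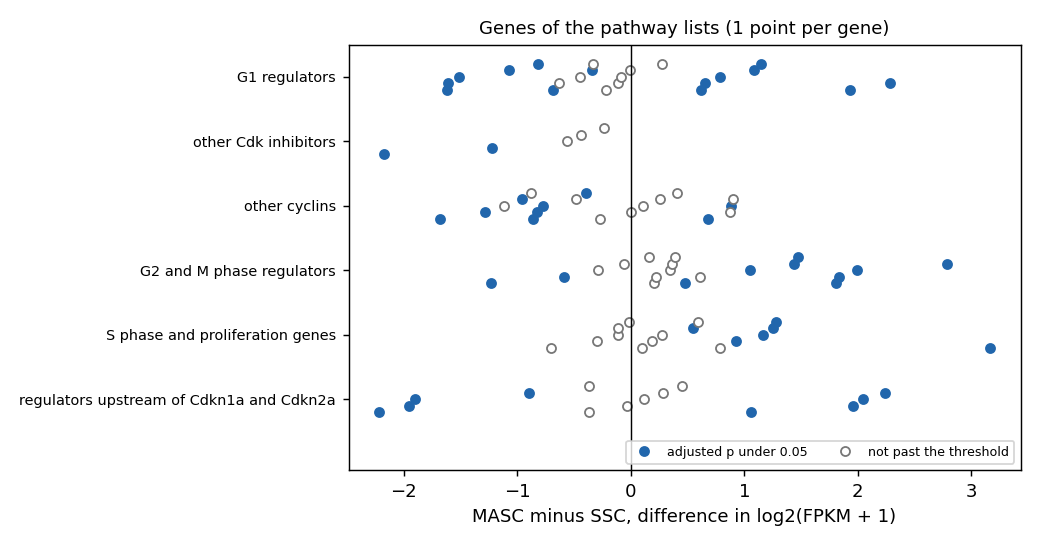
Difference between MASC and SSC lines in log2(FPKM + 1) (horizontal axis) for each gene of the pathway lists, 1 point per gene and 1 row of points per list; filled points passed an adjusted p under 0.05. G2 and M phase and S phase genes lie mostly right of 0, with 8 and 6 genes called higher, while the lists of G1 and upstream regulators spread to both sides.

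Over the 17 samples, the genes most like each member by Pearson's r on log2(FPKM + 1), out of 14814 compared, were Kif15 (0.988), Cenpu (0.983) and Spag5 (0.972) for Ccna2 and Uba2 (0.987) and Msh6 (0.979) for Ccnb1. For Ccne1 they were Rbmxl1 (0.984), Odc1 (0.983) and Acp1 (0.981), for Ccnd3 Pmvk (0.974), Pccb (0.965) and Tuba1b (0.957), and for Ccnd2 Emc3 (0.949), 2510009E07Rik (0.941) and Smoc2 (0.94). For Cdkn2a they were Tmem53 (0.931), Aamdc (0.924) and Tvp23a (0.911), and for Cdkn1a Fam212b (0.919), H2-T10 (0.899) and Kdelr2 (0.894). Ccnd1 had its highest r with Raet1e (0.852), Ier5l (0.834) and Wwtr1 (0.801), Cdkn1b with Zfp688 (0.811), Txnip (0.797) and Tmem165 (0.745), and Ccne2 with Cyp4f41-ps (0.797), 2810408I11Rik (0.782) and Smc5 (0.777). Among the 10 genes themselves, Ccna2 and Ccnb1 went together most closely (0.913), whereas Ccne1 and Ccnd2 ran in opposite directions (-0.821). These values follow the differences between 6 cell types and are descriptions.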

How the data were processed

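RNA from 17 mouse samples was sequenced after Illumina TruSeq preparation. According to the submitters' processing notes, the authors aligned reads to mm9 with TopHat2 2.0.11 and estimated transcript levels with Cufflinks, with normalization for the upper quartile and GC content. The deposited values used here are FPKM per RefSeq transcript and coverage, a signal in reads per base. Whether counting used strand is not given in the sources used here. Rows with 1 locus per transcript (32661) were analysed, and 601 further loci were left out.

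Groups were compared on log2(FPKM + 1), with a pseudocount of 1, by limma 3.58.1 in R 4.3.3 without a trend, over all transcripts, with Benjamini-Hochberg adjustment and a threshold of 0.05. SSC, MASC and ESC lines (12) shared a fit, and comparisons with iPS or HSC samples used a fit of 16 samples. The differences are on that scale, which understates changes of low genes. Shares by start site were compared by two-sided exact permutation over lines. The script was tested on simulated data. Promoter windows of 250 bases came from NCBIM37.

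All 10 genes are named in the comparison of MASCs with SSCs. In the other comparisons only some are named, and those left unnamed did not pass the threshold. From each pathway list at most 4 called genes with the largest difference between MASCs and SSCs are named, and all other Cdk inhibitors. Cdk4 and Cdk6 of the G1 list are an exception, added after their values were seen. For each of the 10 genes the 3 genes most like it are named, except 1 that is not reported here. Members and lists were chosen with earlier results of these data known. Alternatives were another pseudocount (0.1), a filter (FPKM of at least 1 in 2 samples), quantile normalization, levels summed per symbol, and strain or replicate number as a block. Others were limma with a trend and robust moderation, a fit over all 17 samples, and each sample left out. The study's call rule was also applied, read as a log2 difference of at least 2 and an unadjusted p under 0.05. The study words its threshold as above 2-fold in one place and as 2 folds (log2) in another. It used the rule among SSCs, MASCs and ESCs only. TPM scaling and leaving out MASC.1 with SSC.2 were chosen after seeing the data. The exact permutation tests by start site were not planned in advance either.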

Additional observations from a re-analysis of the deposited data

Results flagged for a closer look

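In 32 groups of 4 to 6 lines, a line far from the others of its group was found in 3, and chance alone flags about 1 in 20 groups. Ccnd1 was 90.5 FPKM in MASC.1, while the other MASC lines had 42.5 to 53.5 FPKM. Ccnd2 was 310.1 FPKM in SSC.2, against 34.6 to 45.3 FPKM in the other SSC lines. The Ccnd3 transcript NM_001081636 from the upstream start was 1.43 FPKM in MASC.6 and at most 0.328 FPKM in the other MASC lines. MASC.1 also had the highest fibroblast marker sum of the MASC lines, and 14.0% of the MEF level of Ccnd1 would be 7.23 FPKM.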

How the results depend on the processing

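Apart from leaving out single samples, 786 values were recomputed under other settings. For comparisons with iPS or HSC samples, the fit over all 17 samples repeats the main fit by construction, because the single MEF sample adds no spread. Of the 786 values, 659 differences of single genes kept their direction and side of the threshold. Another 62, counts of called genes, stayed equal or close to the main count. Sign changes occurred in 35 differences, none of which was called by limma in either fit. A further 21 differences lost their call, 5 gained one, and 4 counts moved. The number of the 10 genes called between ESCs and SSCs was 5, and 2 with the replicate number as a block. Between HSCs and MASCs it was 5, and 3 with strain as a block, 2 with the replicate block and 3 by the study's rule. With each sample left out, the count was 5 to 6 for MASCs against SSCs, 3 to 6 for ESCs against SSCs, 3 to 4 for HSCs against SSCs and 2 to 5 for HSCs against MASCs.

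Calls were lost under the replicate block for Ccnd2 in MASCs, for Ccnd2, Ccnb1 and Cdkn2a in ESCs (all against SSCs) and for Ccnd1, Ccnd2 and Ccna2 in HSCs against MASCs. The last 3 were also lost with strain as a block. TPM scaling and quantile normalization each lost Ccnb1 in MASCs and ESCs against SSCs, and levels summed per symbol lost Cdkn2a in ESCs against SSCs (-2.44; adjusted p = 0.0532). The study's rule lost Ccnb1 in MASCs, ESCs and HSCs and Ccne2 NM_001037134 in MASCs (all against SSCs), and Ccnd1 and Ccna2 in HSCs against MASCs. Without MASC.1 and SSC.2, calls were gained for Ccna2 in MASCs and ESCs (0.86 and 0.82) and Ccne1 in HSCs (0.87), all against SSCs.

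The replicate numbers did not pair the lines: after each group's mean was subtracted per transcript, same-numbered SSC and MASC lines correlated at -0.23 to 0.18. With that block the Ccnd2 difference between MASCs and SSCs was -3.69 (adjusted p = 0.0598).

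Values that changed sign follow, on the log2 scale. Under the replicate block these were, for HSCs against MASCs, Ccnd3 -0.011, Cdkn1b -0.027 and Cdkn2a -0.67, for HSCs against SSCs, Cdkn1b -0.053, for MASCs against ESCs, Cdkn2a 0.22, Ccnd2 0.66 and Ccne1 0.063, for ESCs against SSCs, Ccnd1 -0.18, and for MASCs against SSCs, Cdkn1b -0.027. With strain as a block they were Ccne1 0.007 (MASCs against ESCs), Cdkn1a 0.15 (ESCs against SSCs), Ccnd2 0.042 (HSCs against SSCs), p16Ink4a 0.63 and Cdkn1b -0.77 (MASCs against SSCs), and Ccnd3 -0.79, Cdkn2a -0.998 and Cdkn1a -0.32 (HSCs against MASCs). With this block the HSC cultures share their strain with SSC.3 alone, the line lowest in Cdkn1b, and with no MASC line, so its 2 gained calls of Cdkn1b (2.12 against SSCs and 2.89 against MASCs) rest on that 1 line.

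Under TPM scaling they were Cdkn2a -0.029, Cdkn1b -0.079 and Ccnd3 -0.038 (HSCs against MASCs), Cdkn1b -0.25 (HSCs against SSCs), Cdkn1b -0.17 (MASCs against SSCs) and Ccnd1 -0.29 (ESCs against SSCs). Quantile normalization gave Ccne2 NM_009830 0.01 (MASCs against SSCs) and Ccnd1 -0.011 and Cdkn1b 0.021 (ESCs against SSCs). Levels summed per symbol gave Cdkn1a 0.011 (ESCs against SSCs) and Ccne2 -0.20 (MASCs against ESCs). Without MASC.1 and SSC.2 they were Cdkn1b -0.026 (HSCs against MASCs), Ccne2 0.14 and NM_009830 0.031 (MASCs against SSCs), Ccna2 0.04 and Ccne1 0.013 (MASCs against ESCs), Cdkn1b 0.042 (ESCs against SSCs) and Ccnd2 0.15 (HSCs against SSCs). The cause was not tested.

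Leaving out each sample moved Ccne2 from -0.73 to 0.051 and Cdkn1b from -0.58 to 0.54 (MASCs against SSCs), Ccnd1 from -0.26 to 0.29, Cdkn1a from -0.31 to 0.15 and Cdkn1b from -0.86 to 0.26 (ESCs against SSCs), and Ccnd2 from -1.07 to 0.76, Ccnd3 from -0.32 to 0.57, Ccne1 from -0.085 to 0.044, Ccne2 from -0.003 to 0.17, Ccna2 from -0.23 to 0.19 and Cdkn1b from -0.036 to 0.61 (MASCs against ESCs). It moved Ccnd2 from -0.99 to 0.15 and Cdkn1b from -0.56 to 0.57 (HSCs against SSCs), and Ccnd3 from -0.20 to 0.35, Ccne2 from -1.25 to 0.008, Cdkn1b from -0.092 to 0.14 and Cdkn2a from -0.33 to 0.45 (HSCs against MASCs). The p19Arf share moved from -27.3 to -14.9 percentage points and passed 0.05 without SSC.3 (exact permutation p = 0.0238) or MASC.5 (exact permutation p = 0.0317). Where 1 ESC, iPS or HSC sample was left, it was assumed to vary like the other groups.

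Groups of 2 limit the comparisons with ESCs, iPS cells and HSCs. The files give no read counts, isoform levels rest on Cufflinks' division of shared reads, and Ccne2 has low coverage.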
